A study of Mus musculus with 11 samples.

Results

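The expression of 10 genes of interleukin-6 (IL-6) family signalling and of the C/EBP transcription factors was followed in mouse liver after paracetamol (acetaminophen, APAP) injury. Socs3, Stat3, Il6ra, Il6st, Osmr, Lifr, Il1r1, Lepr, Cebpb and Cebpd were taken by symbol from the deposited gene list, and are 10 of its 31053 genes. All 10 passed the filter on low counts. RNA was measured in place with the Visium assay, which captures polyadenylated RNA on a grid of barcoded spots and counts molecules by unique identifiers (UMIs). Each of the 11 libraries was a snap-frozen liver section of 10 µm. Per the study's methods the animals were C57BL/6JCrl mice of 8 to 12 weeks, male unless stated otherwise, and the injured mice had been fasted for 12 h before APAP was injected into the peritoneum. The 3 Uninjured sections at 0 h (numbered 2, 3 and 4) were compared with sections that the labels call POD, taken 24 h (A and B), 36 h (A and B) and 48 h (A to D) after APAP. The labels name no mouse for any section, and by the study's methods 1 mouse liver was used per time point. If so, n counts sections of 1 liver, p-values cover no variation between mice, and mouse and time cannot be told apart. The test used below also draws each gene's spread in part from all other genes. A very small p-value is therefore no measure of that gene's own few sections alone.

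Cytokines of the IL-6 family signal through receptors that share Il6st (gp130), the common signalling chain. Il6ra binds IL-6, Osmr and Lifr pair with gp130 for oncostatin M and leukaemia inhibitory factor, and Lepr, the leptin receptor, has a related structure and signal. The receptors activate JAK kinases, which phosphorylate Stat3, and Socs3 is a STAT3 target that feeds back to inhibit the receptors. In the liver this pathway, together with IL-1 acting on Il1r1 and with Cebpb and Cebpd, drives the acute phase response, in which hepatocytes secrete plasma proteins of inflammation.

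Promoter sequences were taken from RefSeq (GRCm38.p6) as 300 bases around each annotated start, 250 before and 50 after it, and were found for 9 of the 10 genes (Cebpd was not matched). They were searched on both strands for the STAT motif TTCNNNGAA, which reads the same on both strands, and for the C/EBP motif TTGCNNAA. The STAT motif was found in 1 of the 9 genes, Socs3, and in 8.33% of all 32544 promoters of that length. The C/EBP motif was found in Il1r1 and Lepr, and in 10.8% of all promoters. A match describes letters in this window and is not a binding site. Genes were counted if any of their windows matched, whereas the shares are of single windows, so the 2 are not like for like. The Socs3 and Il1r1 promoters are printed because these genes rose at 24 h and hold a match (capitals). The Socs3 window is chr11:117969317-117969616 on the minus strand, with its first matching base 154 bases before the RefSeq start. It lies wholly inside the gene span given below from GENCODE (chr11:117966079-117970047). That span begins further upstream, so the match lies before the RefSeq start only. The Il1r1 window is chr1:40224830-40225129 on the plus strand, with its first matching base 133 bases before that start. Il1r1 has another annotated start, whose window (chr1:40266336-40266635) held no match of either motif. Lepr likewise held its match at start 2 and not at start 1.
Socs3 promoter, STAT motif in capitals: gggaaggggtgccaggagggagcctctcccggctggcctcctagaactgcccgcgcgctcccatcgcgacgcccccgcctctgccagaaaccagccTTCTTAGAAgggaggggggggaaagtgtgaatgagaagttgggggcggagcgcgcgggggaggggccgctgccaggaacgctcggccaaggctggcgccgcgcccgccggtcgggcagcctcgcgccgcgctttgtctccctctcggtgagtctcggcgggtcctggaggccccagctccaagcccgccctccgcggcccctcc
Il1r1 promoter, C/EBP motif in capitals: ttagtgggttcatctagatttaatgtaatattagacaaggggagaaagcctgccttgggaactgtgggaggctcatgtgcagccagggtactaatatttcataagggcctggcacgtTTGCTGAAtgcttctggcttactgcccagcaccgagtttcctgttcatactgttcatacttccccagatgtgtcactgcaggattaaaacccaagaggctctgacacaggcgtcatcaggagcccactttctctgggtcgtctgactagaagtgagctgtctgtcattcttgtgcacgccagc

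Passing spots held 31292663 to 67045372 UMIs per section in 1490 to 3466 spots. Sections of the same group differed by 39.7 to 212 chi-square units per gene, so none was a library deposited again, and 36 h A and 36 h B were the pair farthest apart. Levels are given as CPM, which are UMIs per 1000000 after TMM scaling of the section totals, and differences as log2 fold changes ± SE from edgeR's quasi-likelihood test, adjusted over all 14821 genes tested. Scaling set the balance of the calls. Among genes called against 0 h at 24, 36 and 48 h, those higher made up 55.4%, 57.5% and 52.7% with TMM and 80.4%, 94.1% and 93.7% under total-count scaling, which raised the median gene by 0.37, 0.49 and 0.54. Directions are relative to TMM scaling.

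At 24 h, Socs3, Stat3, Il6st, Osmr and Il1r1 rose and Lifr and Lepr fell, so that 7 of the 10 genes were called, where 41.7% of all genes were. At 36 h, Il6ra, Osmr and Il1r1 rose and Lifr fell (4 of 10, against 29.2% of all genes), and at 48 h Socs3, Osmr and Il1r1 rose and Lifr fell (4 of 10, against 44.2%). The median log2 fold change of the 10 genes was 0.89 at 24 h, 0.48 at 36 h and 0.16 at 48 h, where that of all genes was 0.05, 0.05 and 0.01. The 4 of 10 at 48 h is near the share among all genes. With 36 h B left out, none of the 10 was called at 36 h.

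**Figure D1:**
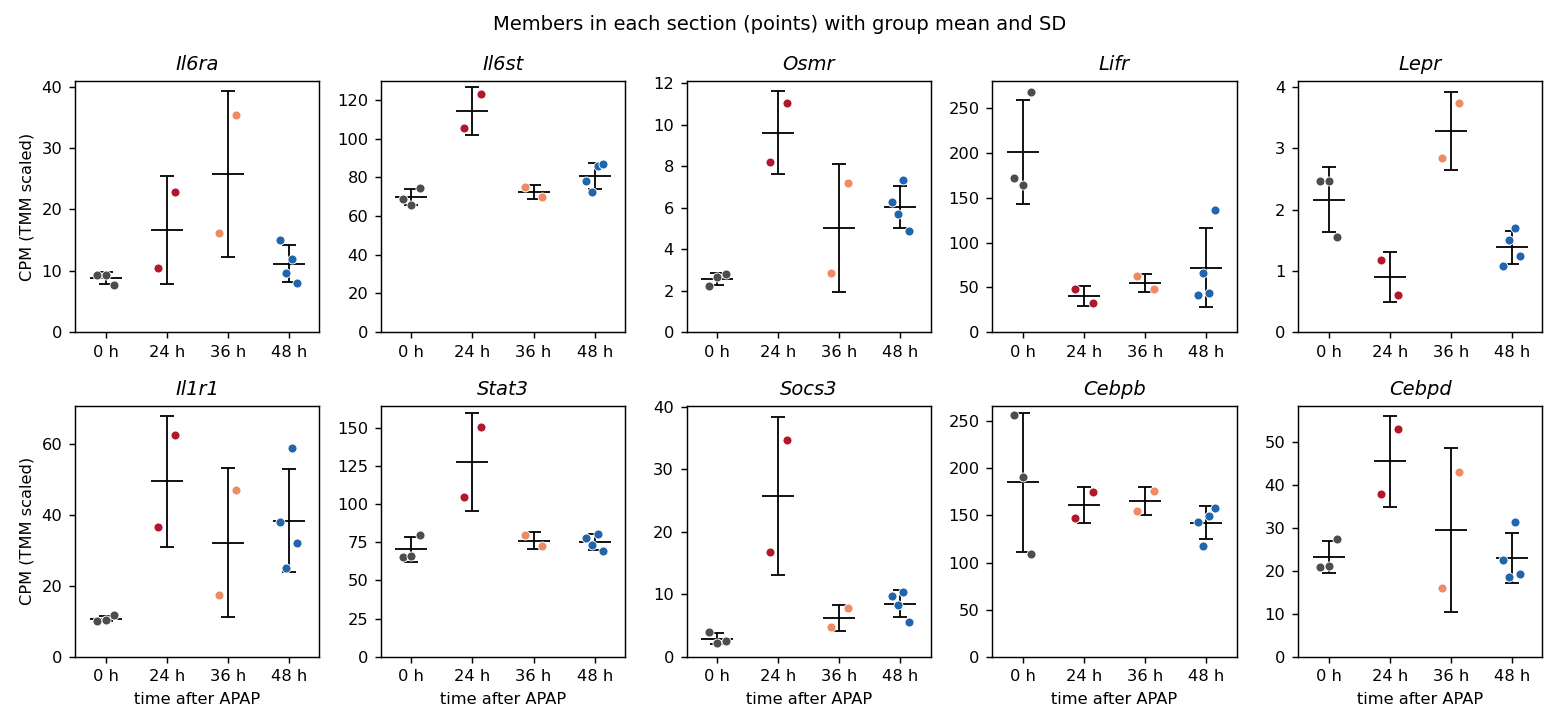
CPM (TMM scaled, axis from 0) of each of the 10 genes in all 11 sections by time point, with points for sections and bars for the group mean and SD. Socs3 lies between 2.26 and 3.90 CPM in the 0 h sections, but at 16.8 and 34.7 CPM in 24 h A and B, and Lifr lies below every 0 h section in all 8 injured sections.

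Il6ra (GRCm38 chr3:89864059-89913196, minus strand), the chain that binds IL-6, was measured at 9.40, 9.28 and 7.65 CPM in the 0 h sections 2, 3 and 4. It reached 10.5 and 22.9 CPM in 24 h A and B and 16.2 and 35.4 CPM in 36 h A and B, and 15.0, 9.62, 11.9 and 8.004 CPM in 48 h A to D. The 24 h and 36 h sections lay above all 3 at 0 h, whereas the 48 h sections overlapped them. The rise at 36 h was 1.55 ± 0.38 on the log2 scale (adjusted p = 0.0149), and without 36 h B it was 0.88 (adjusted p = 0.177). The differences at 24 h (0.92 ± 0.39, adjusted p = 0.0821) and 48 h (0.34 ± 0.33, adjusted p = 0.428) did not pass the threshold, although under total-count scaling both did (1.24 and 0.87).

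Il6st (chr13:112464070-112510086, plus strand), the shared signalling chain, had 69.0, 66.0 and 74.5 CPM at 0 h, then 106 and 123 CPM at 24 h. It had 75.0 and 69.9 CPM at 36 h, then 78.1, 72.7, 85.8 and 86.7 CPM at 48 h. Both 24 h sections were above the other 9, and the 36 h and 48 h sections overlapped those at 0 h. Il6st rose by 0.71 ± 0.12 at 24 h (adjusted p = 0.000843), a call that held under all 17 alternatives. Its differences from 0 h were 0.05 ± 0.12 at 36 h and 0.21 ± 0.10 at 48 h (adjusted p = 0.765 and 0.105), both of which passed under total-count scaling (0.49 and 0.74).

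Osmr (chr15:6813577-6874969, minus strand), the oncostatin M receptor chain, had 2.25, 2.65 and 2.82 CPM at 0 h. It was measured at 8.19 and 11.04 CPM at 24 h, 2.84 and 7.19 CPM at 36 h, and 6.28, 5.72, 7.32 and 4.90 CPM at 48 h. All 8 injured sections lay above those at 0 h, 36 h A only just. Osmr rose by 1.90 ± 0.32 at 24 h, 0.96 ± 0.33 at 36 h and 1.24 ± 0.28 at 48 h (adjusted p = 0.00107, 0.0478 and 0.00504). The call at 36 h was lost in 13 of 17 alternatives, and without 36 h B the difference was 0.14 (adjusted p = 0.754).

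Lifr (chr15:7090614-7197489, plus strand), the receptor chain for leukaemia inhibitory factor, went the other way. Its level was 172, 164 and 268 CPM at 0 h, 48.3 and 32.4 CPM at 24 h, 62.5 and 48.1 CPM at 36 h, and 42.0, 66.0, 43.6 and 137 CPM at 48 h. Every injured section lay below every 0 h section, and 48 h D stood well above the other 3 at 48 h. In log2 terms Lifr fell by 2.32 ± 0.52 at 24 h, 1.87 ± 0.51 at 36 h and 1.48 ± 0.39 at 48 h (adjusted p = 0.00556, 0.0217 and 0.0122). Single sections, and total-count scaling at 48 h (-0.96, adjusted p = 0.0526), ended these calls while the direction held. Without 24 h B the 24 h value was -2.06 (adjusted p = 0.0585), without 36 h B the 36 h value was -1.69 (adjusted p = 0.15), without 36 h A it was -2.07 (adjusted p = 0.068), and without 0 h 4 the 36 h and 48 h values were -1.62 and -1.23 (adjusted p = 0.0572 and 0.0506).

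Lepr (chr4:101717404-101815352, plus strand), the leptin receptor, was sparse, with 74 UMIs over both 24 h sections and 301 over the 3 at 0 h. It was measured at 2.47, 2.47 and 1.55 CPM at 0 h, 1.18 and 0.606 CPM at 24 h, 2.84 and 3.74 CPM at 36 h, and 1.09, 1.51, 1.69 and 1.24 CPM at 48 h. The 24 h sections lay below all sections at 0 h and the 36 h sections above them, while 48 h C overlapped 0 h 4. Lepr fell by 1.25 ± 0.34 at 24 h (adjusted p = 0.0139), and without 24 h B the value was -0.88 (adjusted p = 0.116). The differences at 36 h (0.60 ± 0.31) and 48 h (-0.65 ± 0.26) were not called (adjusted p = 0.168 and 0.0661), but total-count scaling called the first (1.03, adjusted p = 0.02002) and 5 of 17 alternatives the latter, DESeq2 among them (-0.65, adjusted p = 0.0483). Counts were made per gene, so that receptor isoforms, soluble ones included, were not told apart.

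Il1r1 (chr1:40225080-40317257, plus strand), the signalling receptor for IL-1, had 10.1, 10.5 and 11.7 CPM at 0 h, then 36.5 and 62.5 CPM at 24 h. It had 17.3 and 47.1 CPM at 36 h and 37.9, 25.1, 58.8 and 32.0 CPM at 48 h. All 8 injured sections lay above the 3 at 0 h. Il1r1 rose by 2.20 ± 0.43 at 24 h, 1.58 ± 0.43 at 36 h and 1.84 ± 0.38 at 48 h (adjusted p = 0.00277, 0.0217 and 0.00359). The 36 h value was 0.69 without 36 h B (adjusted p = 0.31), and its call was also lost without 0 h 2, 0 h 3 or 0 h 4 (adjusted p = 0.0652, 0.0639 and 0.0526).

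Stat3 (chr11:100885098-100939540, minus strand), the transcription factor that the receptors activate, had 65.7, 65.7 and 79.5 CPM at 0 h, then 105 and 150.3 CPM at 24 h. It had 80.0 and 72.3 CPM at 36 h and 78.0, 73.4, 80.7 and 69.1 CPM at 48 h. Like Il6st, Stat3 was above the other 9 sections in both 24 h sections, and later sections overlapped 0 h. It rose by 0.86 ± 0.15 at 24 h (adjusted p = 0.0014), under all 17 alternatives, and differed by 0.12 ± 0.16 at 36 h and 0.10 ± 0.13 at 48 h (adjusted p = 0.605 and 0.56). With total-count scaling these later differences were 0.56 and 0.63 and passed.

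Socs3 (chr11:117966079-117970047, minus strand), the feedback inhibitor, had the widest fold change of the 10 at 24 h. Its level was 3.90, 2.26 and 2.57 CPM at 0 h, then 16.8 and 34.7 CPM at 24 h. It then had 4.78 and 7.73 CPM at 36 h and 9.67, 8.27, 10.4 and 5.55 CPM at 48 h. All injured sections lay above all at 0 h, and the 24 h sections above all later ones. Socs3 rose by 3.14 ± 0.38 at 24 h and by 1.54 ± 0.33 at 48 h (adjusted p = 0.000187 and 0.00396), in each case under all alternatives. At 36 h the difference was 1.10 ± 0.38 (adjusted p = 0.0528), which 7 of 17 alternatives called.

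Cebpb (chr2:167688915-167690418, plus strand), a transcription factor of acute phase genes, was measured at 256, 190.5 and 109 CPM at 0 h, 148 and 175 CPM at 24 h, 155 and 176 CPM at 36 h, and 143, 118, 149.6 and 158 CPM at 48 h. Its 0 h sections spanned every injured section. The differences from 0 h were -0.20 ± 0.28, -0.16 ± 0.28 and -0.38 ± 0.23 at 24, 36 and 48 h (adjusted p = 0.596, 0.69 and 0.204), of which 1 of 17 alternatives called the last (-0.66 without 0 h 4, adjusted p = 0.0116) and none the others. Cebpd (chr16:15887286-15891031, plus strand), its relative, had 20.9, 21.0 and 27.5 CPM at 0 h, then 37.9 and 53.0 CPM at 24 h. It had 16.0 and 43.1 CPM at 36 h and 22.6, 18.5, 31.3 and 19.4 CPM at 48 h. Both 24 h sections lay above those at 0 h, whereas 36 h A and 36 h B lay on either side of them. The differences were 0.98 ± 0.36, 0.35 ± 0.36 and -0.01 ± 0.31 (adjusted p = 0.0522, 0.49 and 0.979), of which 6 of 17 alternatives called the first.

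Comparing injured times with each other, Socs3, Stat3 and Il6st fell and Lepr rose between 24 h and 36 h, 4 of 10 where 15.6% of all genes were called. Socs3 fell by 2.04 ± 0.42, Stat3 by 0.74 ± 0.17 and Il6st by 0.66 ± 0.13 on the log2 scale (adjusted p = 0.0137, 0.0194 and 0.0111), and Lepr rose by 1.85 ± 0.37 (adjusted p = 0.0119). These 4 calls were lost without 24 h B, where the values were -1.42, -0.46, -0.54 and 1.47. They were also lost with only the groups compared in the fit, and with the section letter as a replicate block. Without 36 h B, Stat3 (-0.64, adjusted p = 0.0903) and Il6st (-0.57, adjusted p = 0.0554) were lost. The uncalled differences ran from -0.94 for Osmr to 0.64 for Il6ra, with Il1r1 and Cebpd at -0.62, Cebpb at 0.04 and Lifr at 0.45. Between 24 h and 48 h, Socs3, Stat3, Il6st and Cebpd fell, 4 of 10 against 34.1% of all genes. The values were -1.60 ± 0.33, -0.76 ± 0.14, -0.50 ± 0.11 and -0.99 ± 0.34 (adjusted p = 0.00511, 0.00309, 0.00605 and 0.0451). Without 24 h B, Socs3 (-0.99) and Il6st (-0.39) were lost, and Cebpd was lost in 12 of 18 alternatives. With the section letter as a replicate block none of these 4 was called. Osmr (-0.66), Il6ra (-0.58), Il1r1 (-0.36), Cebpb (-0.18), Lepr (0.60) and Lifr (0.84) were not called. Between 36 h and 48 h only Lepr was called, falling by 1.25 ± 0.29 (adjusted p = 0.048), 1 of 10 against 3.05% of all genes, and 13 of 18 alternatives lost it. The others ran from -1.21 for Il6ra (adjusted p = 0.095) to 0.44 for Socs3, with Cebpd at -0.37, Cebpb at -0.22, Stat3 at -0.02, Il6st at 0.16, Il1r1 at 0.26, Osmr at 0.27 and Lifr at 0.38. With total-count scaling the later time was higher in 68.1% (24 to 36 h), 74.0% (24 to 48 h) and 74.2% (36 to 48 h) of all calls, compared with 45.1%, 47.7% and 53.1% under TMM.

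**Figure D2:**
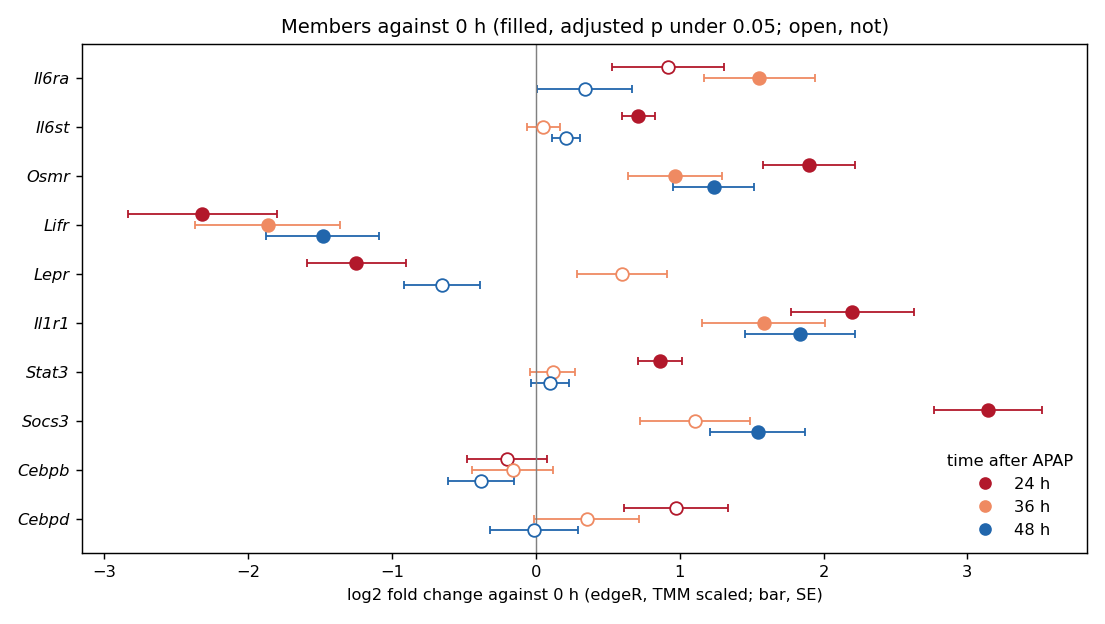
Log2 fold change against 0 h (edgeR, points, with SE as bars) of the 10 genes at 24, 36 and 48 h, filled where the adjusted p was under 0.05. Socs3 stands at 3.14 at 24 h and Lifr at -2.32, and no point of Cebpb is filled.

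Spots mix the RNA of several cells, and in such sums fewer cells of a type and less RNA per cell cannot be told apart. The summed level of 7 hepatocyte markers was 154192 to 162912 CPM at 0 h and 91064 to 96048, 102788 to 113218 and 87150.4 to 106525 CPM at 24, 36 and 48 h. Of 7 neutrophil markers 6 were tested and all 6 rose at each time, the sum of the 7 going from 3.17 to 9.11 CPM at 0 h to 41.7 to 143, 25.8 to 67.9 and 36.8 to 115 CPM at 24, 36 and 48 h. The 9 macrophage markers summed to 891 to 1001 CPM at 0 h, 928 to 1027 CPM at 24 h, 775 to 1229 CPM at 36 h and 1177 to 2160.4 CPM at 48 h, and the 7 mesenchymal markers to 249.7 to 286, 198 to 245, 229 to 566 and 674 to 1469 CPM. The 6 cholangiocyte markers summed to 238 to 296 CPM at 0 h, then to 988 to 1163, 603 to 913 and 331 to 1039 CPM. No marker of these lists was at 0 in any group. Their part in the changes of the 10 genes was not tested.

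The share of spots with at least 1 UMI was taken after thinning each spot to 5000 UMIs. For Socs3 it was 0.641% to 1.97% over the 0 h sections, 7.99% to 14.9% at 24 h, 2.81% to 3.65% at 36 h and 3.66% to 5.85% at 48 h. Unthinned, the Socs3 shares were 3.82% to 8.62% at 0 h and 26.0% to 44.7% at 24 h. For Stat3 the thinned share was 21.6% to 25.5% at 0 h and 41.6% to 53.1% at 24 h, and at 31.9% to 36.8% and 31.2% to 37.0% it was still above the 0 h sections at 36 h and 48 h. Like total-count values, these shares carry no TMM scaling. For Lifr the thinned share was 48.2% to 65.8% at 0 h, 14.0% to 21.6% at 24 h, 22.1% to 29.7% at 36 h and 22.0% to 53.6% at 48 h. The Socs3, Stat3 and Lifr shares of the 24 h sections did not overlap those at 0 h, and the share of Lifr in 48 h D reached into the 0 h range.

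To ask where in the uninjured lobule the genes lay, the tertile of spots most central by score was compared with the tertile most portal within each 0 h section. Lifr, Cebpd, Il1r1 and Cebpb were higher centrally and Il6st and Osmr were higher portally, 6 of 10 genes where 24.7% of all 12321 genes tested were called. Lifr was measured at 147 against 126, 147 against 111 and 239 against 181 CPM in sections 2, 3 and 4, central first, and Cebpd at 20.6 against 14.8, 19.5 against 15.5 and 26.1 against 19.0 CPM. Both were higher centrally in 3 of 3 sections, by 0.35 ± 0.03 and 0.42 ± 0.07 (edgeR with the section as a block, adjusted p = 4.64e-16 and 1.45e-07). Cebpb (0.11 ± 0.03, adjusted p = 0.00327) and Il1r1 (0.26 ± 0.09, adjusted p = 0.033) were called with smaller differences. Il6st was measured at 50.7 against 59.4, 50.3 against 56.8 and 58.8 against 60.9 CPM, and was 0.16 ± 0.04 lower centrally (-0.16, adjusted p = 0.00196), while Osmr stood at -0.50 ± 0.19 (adjusted p = 0.0478). Without 0 h 2 the values of Il6st, Osmr and Il1r1 were -0.12, -0.38 and 0.28 (adjusted p = 0.11, 0.287 and 0.0868), and without 0 h 3 those of Osmr and Il1r1 were -0.51 and 0.18 (adjusted p = 0.17 and 0.339). Total-count scaling also ended the calls of Il6st (-0.10, adjusted p = 0.0681) and Osmr (-0.44, adjusted p = 0.0797), and a split of the spots at the median score that of Osmr (-0.40, adjusted p = 0.0696). Socs3, Stat3, Il6ra and Lepr were not called (-0.08, -0.05, 0.14 and -0.25). All 9 macrophage markers were lower in the central tertile, and their part was not tested. Under total-count scaling 67.9% of all calls were higher centrally, against 48.5% with TMM.

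To place the genes in the tissue, the 10% of spots with the lowest hepatocyte score in each section (149 to 346 spots) were called hepatocyte-poor. They were compared with distant spots, at least 3 grid steps from any of them. The share was fixed, also at 0 h, so these spots are not known to be injured. Spots under a threshold from the lowest 1% of 0 h spots made up 14.9% and 14.7% in 24 h A and B. They made up 4.21% and 2.80% in 36 h A and B, and 6.40% to 16.2% at 48 h. Most hepatocyte-poor spots at 36 h thus lay within the 0 h range. The score used 7 genes (Alb, Apoa1, Apoa2, Apoc3, Apoh, Ttr and Rbp4), none of them a member or on the list of acute phase genes given below. That does not make the score independent of the pathway, since whether these 7 genes respond to it was not tested. A low score can mean fewer hepatocytes or less of this RNA per hepatocyte, which were not told apart. At 0 h the hepatocyte-poor spots were shallower than distant ones (median 10227 to 17196 against 21024 to 40068 UMIs per spot), and none of the 10 genes was called, where 0.414% of all 13056 genes tested were. At an unadjusted p under 0.05 it was 1. The values ran from -0.18 for Cebpb to 0.48 for Lepr, with Il1r1 at -0.10, Stat3 and Lifr at -0.08, Il6ra at -0.06, Osmr at 0.03, Il6st at 0.06, Cebpd at 0.13 and Socs3 at 0.15. In the injured sections the receptor chain Lifr and Stat3 were lower in hepatocyte-poor spots at all 3 times, whereas Osmr and Cebpd were higher there at 48 h.

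At 24 h, Socs3, Stat3, Il6st and Lifr were lower and Cebpb was higher in hepatocyte-poor spots, 5 of 10 against 20.7% of all genes. Il6st was measured at 81.8 against 118 CPM in 24 h A and 96.0 against 147 CPM in 24 h B, hepatocyte-poor first, a difference of -0.57 ± 0.10 (adjusted p = 5.73e-05). Socs3 stood at 13.2 against 19.5 and 25.1 against 39.5 CPM (-0.61 ± 0.17, adjusted p = 0.00847). The differences were -0.33 ± 0.10 for Stat3, -0.58 ± 0.13 for Lifr and 0.27 ± 0.10 for Cebpb (adjusted p = 0.0125, 0.00138 and 0.0458). Without 24 h B those of Socs3, Stat3 and Lifr were -0.57, -0.26 and -0.46 (adjusted p = 0.198, 0.292 and 0.0925), and without 24 h A that of Socs3 was -0.65 (adjusted p = 0.0648). The call of Cebpb was lost in 9 of 16 alternatives. Il1r1 stood at -0.55 ± 0.19 (adjusted p = 0.0509), which 7 of 16 alternatives called, and Il6ra (-0.03), Cebpd (0.16), Osmr (0.32) and Lepr (0.37) were not called. At 36 h Stat3 (-0.39 ± 0.11), Il6ra (-0.62 ± 0.20) and Lifr (-0.49 ± 0.12) were lower, 3 of 10 against 29.7% of all genes (adjusted p = 0.0046, 0.0229 and 0.00217). Without 36 h A none of these 3 passed (-0.33, -0.62 and -0.48, adjusted p = 0.118, 0.102 and 0.0509), and without 36 h B Il6ra stood at -0.69 (adjusted p = 0.222). Il6st, at -0.27 ± 0.10 (adjusted p = 0.0503), was called by 4 of 16 alternatives, and Il1r1 (-0.41), Cebpb (-0.21), Cebpd (-0.06), Socs3 (0.03), Lepr (0.06) and Osmr (0.37) were not called.

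At 48 h, 7 of 10 genes were called, where 65.6% of all genes were. Lifr was measured at 32.6 against 48.2, 41.1 against 75.2, 27.7 against 51.0 and 75.5 against 157 CPM in 48 h A to D, and was lower in hepatocyte-poor spots in 4 of 4 sections, by -0.85 ± 0.08 (adjusted p = 2.19e-11). Stat3 was likewise lower in 4 of 4 (59.8 against 92.0, 58.7 against 80.8, 57.6 against 99.0 and 55.8 against 78.1 CPM), by -0.59 ± 0.07 (adjusted p = 6.05e-09). Osmr went the other way, with 9.88 against 5.96, 9.14 against 4.60, 8.46 against 7.68 and 7.76 against 4.57 CPM (0.61 ± 0.14, adjusted p = 0.000355). So did Cebpd, with 25.5 against 24.1, 25.8 against 16.7, 38.1 against 33.3 and 31.2 against 19.9 CPM (0.36 ± 0.09, adjusted p = 0.00129). Il1r1, Il6ra and Cebpb were lower (-0.55 ± 0.12, -0.40 ± 0.14 and -0.23 ± 0.07, adjusted p = 0.000871, 0.0166 and 0.00368). Il6ra was lost without 48 h A, B or C (-0.36, -0.38 and -0.27, adjusted p = 0.0936, 0.0505 and 0.15) and Cebpb without 48 h C (-0.15, adjusted p = 0.051). Il6st (0.13 ± 0.06, adjusted p = 0.0718), Socs3 (-0.22 ± 0.13) and Lepr (0.22) were not called.

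Scaling changed several of these spatial calls. Under total-count scaling the median gene lay 0.31, 0.39 and 0.54 higher in hepatocyte-poor spots at 24, 36 and 48 h, and 88.8%, 86.4% and 83.3% of all calls were higher there, against 42.2%, 48.7% and 54.1% with TMM; at 0 h it was 97.0% against 87.0%. On that scale the 48 h differences of Lifr (-0.37), Osmr (1.10) and Cebpd (0.85) kept their direction and passed, Stat3 (-0.10) and Il1r1 (-0.06) did not pass, Il6st passed (0.62), and Il6ra (0.086) and Cebpb (0.26) turned. At 24 h Socs3, Stat3, Il6st and Lifr (-0.28, -0.00, -0.24 and -0.26) no longer passed, and at 36 h neither did Stat3, Il6ra or Lifr (-0.02, -0.24 and -0.12). The lower Lifr and the higher Cebpd at 48 h held under all 16 alternatives. The higher Osmr missed the threshold when regions were set by the study's hepatocyte list without Hp (0.25, adjusted p = 0.137).

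The difference itself was then tested between injured and uninjured sections. The contrast of hepatocyte-poor with distant spots, averaged over the 3 injured times, was lower than at 0 h for Stat3 (-0.36 ± 0.10), Il6st (-0.29 ± 0.10) and Lifr (-0.57 ± 0.10), 3 of 10 where 24.4% of all genes were called (edgeR, adjusted p = 0.00888, 0.0306 and 7.82e-05). For Il6st the contrast was below that at 0 h (0.06) at 24 h and 36 h and above it at 48 h (0.13), with hepatocyte-poor spots lower in 5 of 8 injured sections. At 0 h, Lifr had stood at 181 against 181, 161 against 176 and 269.7 against 289 CPM. Without 0 h 4, Stat3 stood at -0.30 (adjusted p = 0.0848), and with a threshold from 0 h spots at -0.15 (adjusted p = 0.85). Lifr was lost with that threshold (-0.50, adjusted p = 0.135) and with the study's hepatocyte list without Hp (-0.12, adjusted p = 0.536), as was Il6st, which was also lost without 0 h 2, 0 h 3, 0 h 4 or 24 h B (-0.27, -0.31, -0.29 and -0.28, adjusted p = 0.142, 0.0713, 0.0897 and 0.0607) and turned under total-count scaling (0.028), where Stat3 stood at -0.04, Lifr at -0.25, and 82.5% of all calls were higher, against 42.0% with TMM. Socs3 (-0.41), Il1r1 (-0.40), Il6ra (-0.29), Lepr (-0.27), Cebpd (0.02), Cebpb (0.13) and Osmr (0.40) were not called. Beside these contrasts, all 7 hepatocyte score genes were lower in hepatocyte-poor spots at 24, 36 and 48 h, as the score set them to be, with medians of -0.76, -0.88 and -1.34. Of 9 macrophage markers 2, 8 and 9 were higher there, of 7 mesenchymal markers 3, 6 and 6, and of 6 neutrophil markers 3, 3 and 6. Their part in the result was not tested.

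**Figure D3:**
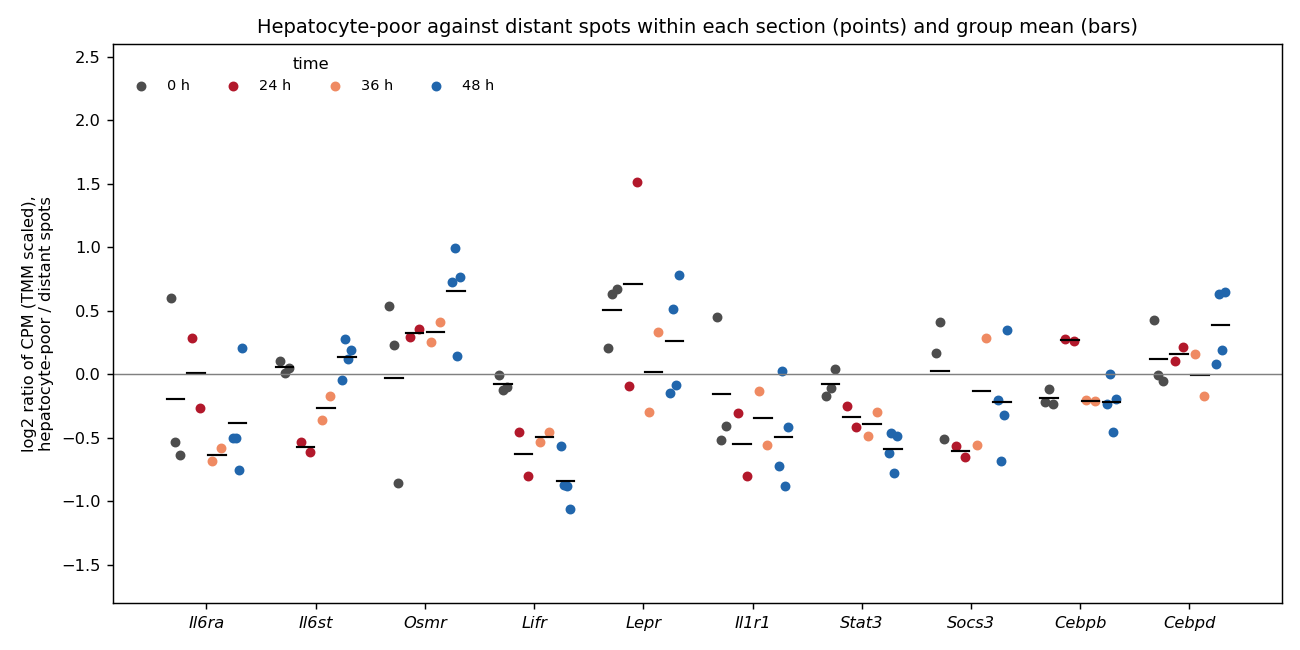
Log2 ratio of CPM (TMM scaled) in hepatocyte-poor over distant spots, with points for sections by time point and bars for group means. Every injured section lies below 0 for Lifr and for Stat3, and all 4 sections at 48 h lie above 0 for Osmr and for Cebpd.

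Spots that touched a hepatocyte-poor spot without being poor themselves formed a border, which differed less from distant spots. At 24 h Il6st was lower there (-0.27 ± 0.06, adjusted p = 0.0011), 1 of 10 against 6.45% of all 13608 genes tested, and without 24 h B it stood at -0.23 (adjusted p = 0.143). The others ran from -0.25 for Il1r1 (adjusted p = 0.0701) to 0.26 for Osmr, with Socs3 at -0.20, Lifr at -0.12, Stat3 and Il6ra at -0.10, Cebpd at -0.02, Cebpb at 0.15 and Lepr at 0.17. At 36 h none of the 10 was called by edgeR, none had an unadjusted p under 0.05, and 7.05% of all genes were called. The values were -0.19 for Il6ra, -0.13 for Il1r1 and Cebpd, -0.11 for Stat3, -0.09 for Il6st and Cebpb, -0.06 for Lifr, -0.02 for Lepr, 0.02 for Osmr and 0.07 for Socs3. At 48 h Stat3 (-0.21 ± 0.04), Il6ra (-0.28 ± 0.08), Lifr (-0.17 ± 0.04), Il1r1 (-0.23 ± 0.06) and Cebpb (-0.17 ± 0.04) were lower and Osmr (0.26 ± 0.11) was higher, 6 of 10 against 36.3% (adjusted p = 5.61e-05, 0.00387, 0.00103, 0.000759, 0.000817 and 0.0491). Il1r1 was lost without 48 h C (-0.13, adjusted p = 0.133), and Osmr in 7 of 14 alternatives. Lepr (-0.27), Socs3 (-0.24, adjusted p = 0.0555), Il6st (-0.05) and Cebpd (0.08) were not called. Total-count scaling turned Lifr and Cebpb at 48 h (0.039 and 0.037) and moved Il6st from -0.05 to 0.16. On that scale 89.5%, 86.5% and 87.8% of all calls at 24, 36 and 48 h were higher at the border, against 35.6%, 29.4% and 46.6% with TMM.

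Step by step from hepatocyte-poor spots outward, levels were taken as UMIs per 1000000 of all UMIs in those spots, unscaled, as means over sections. At 48 h Osmr went from 12.2 in hepatocyte-poor spots to 7.98, 5.38 and 5.50 at 1, 2 and 3 steps, and Cebpd from 41.8 to 28.5, 22.0 and 22.7. Il6st, too, was highest in hepatocyte-poor spots at 48 h on this scale (131, then 94.6, 85.5 and 84.2), but at 24 h it was lowest there (101, then 109, 118 and 119). Under total-count scaling the median gene also lay higher in hepatocyte-poor than in distant spots at 48 h, by 0.54. Lifr at 48 h was lowest in hepatocyte-poor spots, at 60.7 against 83.9, 87.8 and 81.0 further out. Cebpb at 24 h went from 213 to 174, 147 and 142, at 36 h from 196 to 181, 172 and 175, and at 48 h from 190 to 164, 156 and 158. At 0 h the profiles were flat by comparison, with Il6st at 59.2, 56.5, 55.9 and 53.8, Osmr at 2.09, 2.23, 1.96 and 2.04, and Lifr at 161, 158, 161 and 157.

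**Figure D4:**
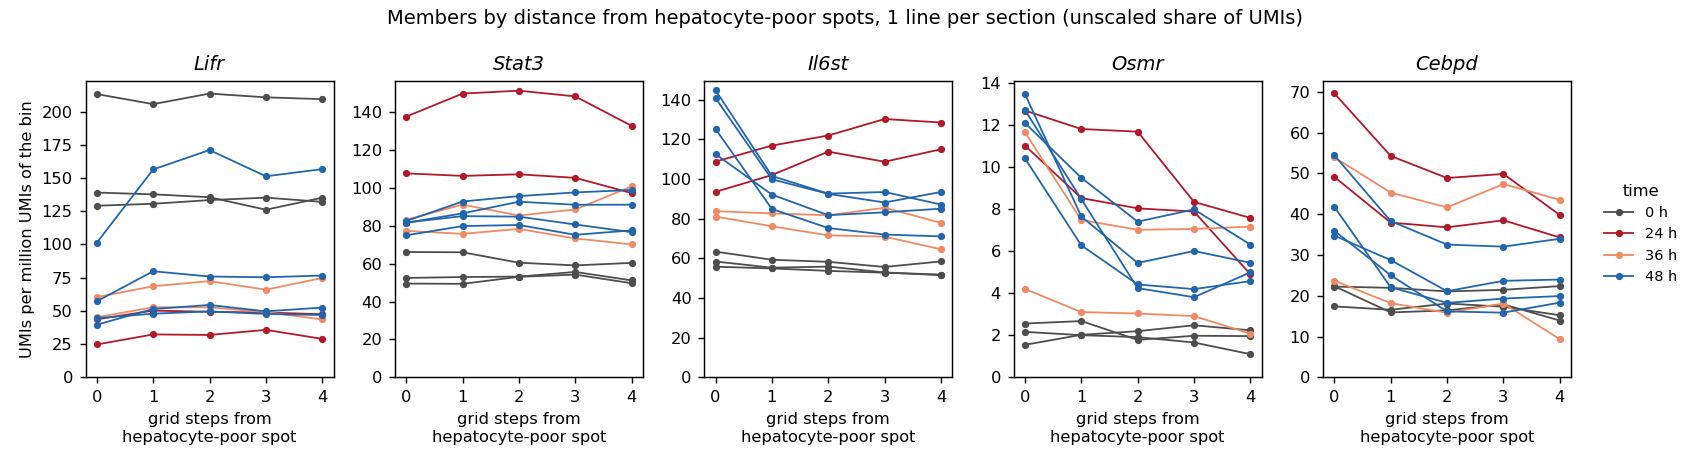
UMIs per 1000000 UMIs of the bin (unscaled) of Lifr, Stat3, Il6st, Osmr and Cebpd against grid steps from the nearest hepatocyte-poor spot, with a line for each section coloured by time point. Osmr, Cebpd and Il6st are highest at step 0 in all 4 sections at 48 h.

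Genes were also placed relative to other cells, by comparing the 10% of spots highest in a marker score with the remaining spots of the section on the same unscaled measure. At 48 h Osmr averaged 11.8 in macrophage-rich spots against 6.37 elsewhere and 12.1 against 6.36 in mesenchyme-rich spots, higher in 4 of 4 sections in each case. Cebpd averaged 41.3 against 24.7 and 45.8 against 24.2, and Il6st 128 against 88.7 and 134 against 88.2, again in 4 of 4 sections. These 3 genes were also higher in neutrophil-rich spots (Osmr 10.7 against 6.52, Cebpd 37.3 against 25.2, Il6st 111 against 90.7) and in endothelium-rich spots (10.01 against 6.60, 35.2 against 25.4 and 115 against 90.2) in 4 of 4. At 0 h all 3 were higher in mesenchyme-rich spots in 3 of 3 sections, Cebpd at 25.4 against 17.8. At 48 h Lifr was lower in macrophage-rich and mesenchyme-rich spots in 4 of 4 sections, at 59.8 against 84.8 and 60.6 against 84.7. At 24 h Cebpb averaged 213 in macrophage-rich spots against 155 elsewhere and 213 against 155 in neutrophil-rich spots, in 2 of 2 sections. It was higher in 2 of 2 in mesenchyme-rich (184 against 158), endothelium-rich (183 against 158) and cholangiocyte-rich spots (191 against 157) too. Nor was this particular to 24 h. In macrophage-rich spots Cebpb was higher in 36 h A and B (189 against 169 and 198 against 184). The same held in 48 h A to D (186 against 161, 181 against 129, 178 against 174 and 202 against 177). At 0 h it averaged 141 there against 148 elsewhere. At 24 h Il6st averaged 107 in macrophage-rich spots against 115 elsewhere. These are averages with no test, and the marker scores overlap with each other and with the hepatocyte-poor spots. No value over all genes was taken for marker-rich spots. In hepatocyte-poor spots at 48 h the median gene lay 0.54 higher under total-count scaling. With TMM, Il6st was not called there (0.13, edgeR, adjusted p = 0.0718).

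The other genes of the pathway are given as lists, whose counts stand beside the 41.7%, 29.2% and 44.2% of all genes called against 0 h at 24, 36 and 48 h. Of 12 listed IL-6 family and IL-1 ligands 9 were tested. Here 5 rose and 1 fell at 24 h, 3 rose and 2 fell at 36 h and 5 rose and 2 fell at 48 h, with medians of 2.36, 1.85 and 2.56, or 2.36, 1.24 and 1.30 when Il11 and Lif, which had no UMI at 0 h, were set at their lower bound. Il6 itself was near the detection limit, with 10 UMIs at 0 h (0.0727 CPM) and 0.0746, 0.0285 and 0.0353 CPM later, and was not tested. Il11, a gp130 cytokine, had 0 UMIs in the 3 sections at 0 h and 4.69 and 9.38 CPM in 24 h A and B. This was at least 317-fold higher than a floor of 3 UMIs over the 0 h group, and Il11 was back at 0.0285 to 0.0717 CPM in every 36 h and 48 h section. Il1rn, the IL-1 receptor antagonist, rose by 3.35 ± 0.51 at 24 h, from 1.36, 2.32 and 2.32 CPM to 11.9 and 29.1 CPM (adjusted p = 0.000755), while Il1b fell at 36 h (-2.42 ± 0.64, adjusted p = 0.0199) from 15.7 ± 5.91 to 2.94 ± 0.601 CPM (SD, n = 3 and 2). Il1a, the other IL-1, fell at 36 h as well (-0.96, adjusted p = 0.0383).

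Of 10 other receptor chains 9 were tested, and 4 rose and 4 fell at 24 h, 3 and 3 at 36 h, and 4 and 3 at 48 h, with medians of -0.46, -0.18 and 0.15. Il1rap, the partner chain of Il1r1, fell where Il1r1 rose, from 151, 125 and 124 CPM at 0 h to 31.9 and 27.7 CPM at 24 h (-2.16 ± 0.20, adjusted p = 5.42e-05). It stood at 64.8 and 64.4 CPM on average at 36 h and 48 h, still lower (-1.04 and -1.05, adjusted p = 0.00378 and 0.000441). Ghr, the growth hormone receptor, fell from 304, 300.4 and 302 CPM to 86.2 and 57.3 CPM at 24 h (-2.07 ± 0.21, adjusted p = 7.52e-05). Crlf2 (1.15 ± 0.13 at 24 h) and Il10rb (1.27 ± 0.15 at 48 h) rose (adjusted p = 0.000113 and 0.000136).

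The 19 kinases, STATs and inhibitors, all tested, had 5 rising and 2 falling at 24 h, 1 and 4 at 36 h, and 3 and 3 at 48 h, with medians of -0.04, -0.12 and -0.11. The 7, 5 and 6 of 19 called are below the shares among all genes, and under total-count scaling 9, 10 and 10 were called, 9, 9 and 10 of them higher. Cish, a SOCS family inhibitor, fell at 36 h, when it was measured at 3.07 and 4.77 CPM against 56.0, 39.2 and 31.5 CPM at 0 h (-3.43 ± 0.71, adjusted p = 0.0073). Its 24 h sections, at 42.7 and 30.6 CPM, overlapped 0 h. Socs5 rose at 24 h (1.09 ± 0.18, adjusted p = 0.00084), and Stat5b fell at each time (-0.90, -0.97 and -0.76, adjusted p = 0.0287, 0.0299 and 0.0222). Stat5a fell at 36 h (-0.64, adjusted p = 0.0426).

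Of the 5 other genes listed with the C/EBP family by name or relation, 2 rose at 24 h. At 36 h 1 rose and 1 fell, and 2 fell at 48 h, with medians of 0.29, -0.22 and -0.14. Ddit3 (CHOP), the stress-induced member, rose at 24 h from 10.3, 14.5 and 9.74 CPM to 227 and 116 CPM (3.89 ± 0.62, adjusted p = 0.00101). At 36 h, A and B differed widely, at 114 and 17.9 CPM (2.52, adjusted p = 0.013). Cebpg rose at 24 h (0.61 ± 0.14, adjusted p = 0.00501), and Cebpa, the hepatocyte differentiation factor, and Cebpz fell at 48 h (-0.77 ± 0.20 and -0.62, adjusted p = 0.00907 and 0.000633).

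The 24 acute phase genes known to respond to IL-6, were all tested, and 21 rose at 24 h, 13 at 36 h and 8 at 48 h, with 1, 3 and 3 falling and medians of 1.81, 1.36 and 0.57. The 11 of 24 called at 48 h are near the share among all genes. Lcn2 rose from 5.02, 2.25 and 7.51 CPM to 621 and 1576 CPM at 24 h (7.81 ± 0.997, adjusted p = 0.000324) and Orm2 from 14.6, 15.3 and 24.5 CPM to 341 and 357 CPM (4.27 ± 0.71, adjusted p = 0.00129). The metallothioneins Mt2 (6.50, adjusted p = 0.00455) and Mt1 (5.69, adjusted p = 0.00389) rose with wide spread, Mt2 from 20.5 CPM on average to 370.2 to 3323 CPM. Between 24 h and 48 h, 16 of the 24 fell and none rose (median -1.29). In space, 18, 16 and 21 of the 24 were lower in hepatocyte-poor than in distant spots at 24, 36 and 48 h, and 1 was higher each time (medians -0.91, -0.87 and -1.49), where of all 13056 genes 1560, 1987 and 3928 were lower. With total-count scaling 17, 15 and 18 of the 24 were lower and 2, 2 and 1 higher. These spots were chosen for low hepatocyte RNA, so lower values of genes that hepatocytes express follow in part from that choice. In the uninjured lobule, 17 of 24 were lower centrally and 2 higher on either scale, where of all 12321 genes 1567 were lower and 1476 higher with TMM. Hpx, on this list, is also on the portal list that set the tertiles, so its value there is not independent of them. Of the 21 acute phase genes with a promoter sequence 5 held the STAT motif and 12 the C/EBP motif in any window, and no share per gene was taken over all genes.

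Of 12 early STAT3 targets, all tested, 8 rose and none fell at 24 h, 7 rose and 2 fell at 36 h, and 7 rose and none fell at 48 h, with medians of 0.87, 0.64 and 0.45. Timp1, an inhibitor of matrix proteases, rose from 0.264, 0.147 and 0.424 CPM to 28.9 and 56.9 CPM at 24 h (7.33 ± 0.57, adjusted p = 3.24e-05). Junb (2.04, adjusted p = 0.00341) and Fos (2.67, adjusted p = 0.00257) rose at 24 h as well. Bcl6 rose at 36 h (2.33, adjusted p = 0.0174), where its sections spanned 9.42 to 48.8 CPM. Of the 11 with a promoter sequence 2 held the STAT motif and none the C/EBP motif, again counted by gene.

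**Figure D5:**
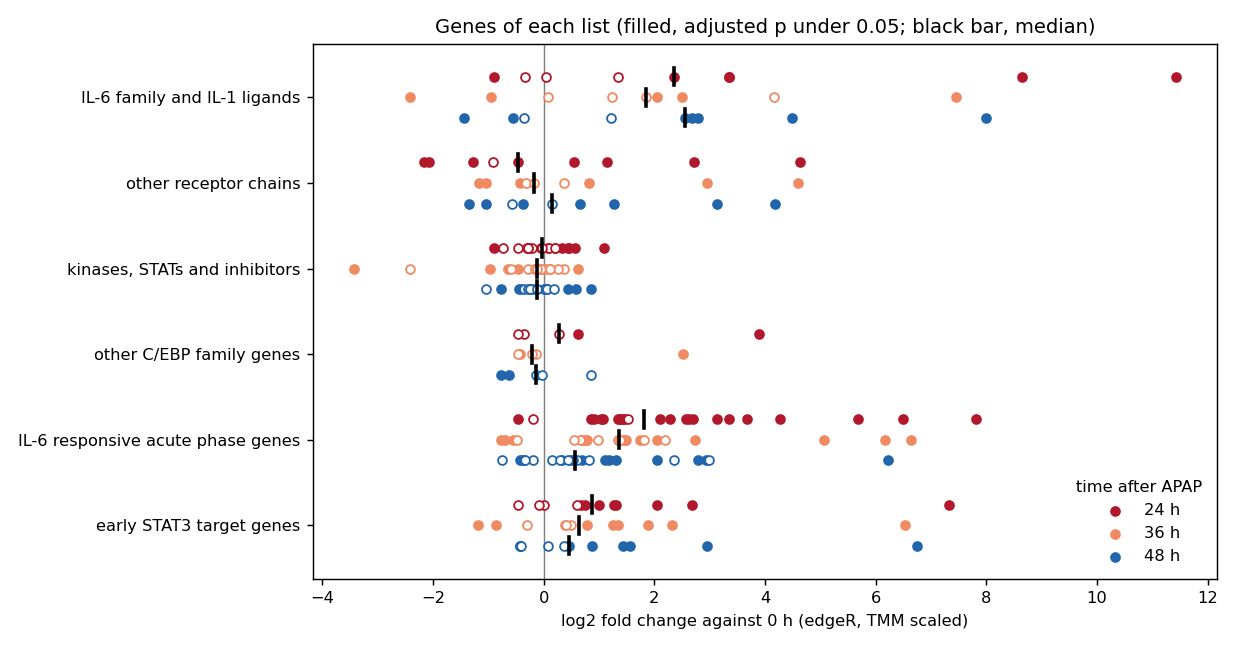
Log2 fold change against 0 h at 24, 36 and 48 h of every tested gene of the 6 pathway lists, with points for genes (filled where called) and a bar for the list median. The points of Il11 and Lif, with no UMI at 0 h, depend on the prior count of the fit. The acute phase genes sit highest as a list at 24 h after the ligands, with a median of 1.81, and the kinases, STATs and inhibitors centre near 0.

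As a measure of likeness, each gene's log2 CPM was correlated over the 11 sections with every tested gene of at least 10 CPM on average. The 11 sections fall into 4 time groups and share their libraries, so r carries the group differences, and it is given as a description. The nearest genes were Dhx38 and Tmem41a for Socs3 (r = 0.962 and 0.961), Cacul1 and Cobl for Stat3 (0.951 and 0.944), and Cic and Slc37a3 for Il6st (0.945 and 0.945). Mapre1 and Cdkn2aipnl were nearest to Osmr (0.976 and 0.97), Msn and Col4a2 to Il1r1 (0.972 and 0.968), Cyp7b1 and Cela1 to Lifr (0.975 and 0.96), and Clip1 and Tmem87b to Il6ra (0.946 and 0.94). For Cebpd they were Capn1 and Tspan9 (0.94 and 0.933), for Lepr Nfic and Fto (0.915 and 0.914), and for Cebpb Nr1d1 and Apc, with lower values (0.815 and 0.755).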

How the data were processed

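Visium libraries of 11 liver sections were analysed. The authors deposited unnormalised UMI counts of 31053 genes for every spot barcode, which per the submitters' processing notes came from Space Ranger 1.0.0 with mm10 (the notes also list Seurat 4.1.1). Tissue spots needed 800 or more genes and no more than 20% mitochondrial UMIs. Counts of these spots were summed per section, or per section and region, and fitted with edgeR 4.0.16 in R 4.3.3 (filterByExpr, TMM, robust quasi-likelihood, two-sided, Benjamini-Hochberg over all genes tested, called at an adjusted p under 0.05). All sections entered each fit except that of the lobule (0 h only), and region fits had the section as a block. Steps were checked on simulated counts. Hepatocyte and zonation scores were made on spots thinned to 2000 UMIs, the latter with the study's central and portal lists. Marker scores of other cells were made on spots thinned to 5000 UMIs. Spots under 5000 UMIs were left out of that comparison, 260 of them in 0 h 4. Precision is limited by 2 to 4 sections a group, and the intervals cover no variation between mice. The 10 genes and all lists were chosen with earlier results of these data known. All 10 are named in every comparison. Of each list at most 4 genes are named, called against 0 h, at 5 CPM or more in the highest group and with the largest fold changes, and for each of the 10 the 2 genes of highest r. Il6 and Lif are named besides, chosen after their values were seen. The Il1rn gene stands on both the ligand and the acute phase list, and Hpx on both the acute phase and the portal list. Alternatives were RLE and total-count scaling, no low-count filter, DESeq2 1.42.0, fits of the groups compared alone, a replicate block, other region definitions and leaving out each section.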

Additional observations from a re-analysis of the deposited data

Results flagged for a closer look

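The contrast of hepatocyte-poor with distant spots differed between injured and uninjured sections for Stat3, Il6st and Lifr, by a test of the difference itself (edgeR, mean of the 24 h, 36 h and 48 h contrasts minus that at 0 h). The difference on the log2 scale was -0.36 for Stat3 (-0.360462 unrounded), -0.29 for Il6st (-0.289923) and -0.57 for Lifr (-0.567745). In CPM (TMM scaled), Lifr and Stat3 were lower in hepatocyte-poor spots in 8 of 8 injured sections, and Il6st in 5 of 8. At 0 h Lifr was lower in 3 of 3 sections, Stat3 in 2 and Il6st in 0. The call of Lifr was lost with a threshold from 0 h spots (-0.50, adjusted p = 0.135) and with the study's hepatocyte list without Hp (-0.12, adjusted p = 0.536). That of Stat3 was lost with the same threshold, and that of Il6st with both. Under total-count scaling Il6st turned, and the differences of Stat3 and Lifr were smaller in size, as given above. Leaving out 0 h 4 also lost the call of Stat3, and leaving out any single 0 h section lost that of Il6st. Markers of other cells were higher and hepatocyte score genes lower in the same spots, and their part was not tested. The 4 sections at 48 h were also searched for single sections far from the rest in each of the 10 genes, and none passed the critical value. The widest gap was that of Lifr in 48 h D, at 0.746 of the range of its group.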

How the results depend on the processing

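Of 150 values (10 genes in 15 comparisons) 55 were called, and 13 of these were called in the same direction under every alternative, whereas 42 were lost or turned under at least 1. The 13 included Socs3, Stat3, Il6st, Osmr and Il1r1 at 24 h and Socs3, Osmr and Il1r1 at 48 h against 0 h. Leaving out sections turned no called value. Total-count scaling turned Il6ra (0.086) and Cebpb (0.26) in hepatocyte-poor spots at 48 h, Il6st in the injured minus 0 h contrast (0.028), and Il6st (0.16), Lifr (0.039) and Cebpb (0.037) at the border at 48 h, since it moves the median gene. Under it the number of the 10 genes called went from 4 to 8 at 36 h against 0 h, from 1 to 0 for 48 h against 36 h, from 4 to 2 for 48 h against 24 h, from 5 to 3 and from 3 to 1 in hepatocyte-poor spots at 24 h and 36 h, and from 6 to 3 at the border at 48 h. Without the low-count filter 2 were called at 36 h. With only the groups compared in the fit, 0 were called from 24 h to 36 h and 0 from 36 h to 48 h, where fewer samples set the spread. For 48 h against 36 h, RLE scaling gave 0 and DESeq2 gave 2. With the hepatocyte-poor share at 20%, 1 was called in poor spots at 36 h, 0 at the border at 24 h and 1 at 48 h. With the study's hepatocyte list without Hp the numbers were 1 at 24 h, 0 at 36 h and 1 for injured minus 0 h, and with a threshold from 0 h spots the last was 0. With distant spots from 2 steps, 2 were called at the border at 24 h. The cause of these shifts was not tested. With 1 section left out at a time the number called ranged from 0 to 5 at 36 h against 0 h, 0 to 4 for 36 h against 24 h, 0 to 1 for 48 h against 36 h, 1 to 5 for 48 h against 24 h, 3 to 6 for central against portal, 1 to 6 and 0 to 4 in hepatocyte-poor spots at 24 h and 36 h, 1 to 3 for injured minus 0 h and 0 to 2 at the border at 24 h. Where a time point was left with 1 section, that section was taken to vary like the other groups.

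The letters A to D could pair sections of the injured times. Deviations of same-letter sections correlated at 0.287 between 24 h and 36 h, at -0.124 and -0.122 between 24 h and 48 h, and at 0.0736 and -0.241 between 36 h and 48 h, so not every pair was above 0.1 and the letters were not used to pair sections. With 2 sections in a group A and B mirror each other, so 24 h and 36 h give a single value, and whether their letters pair was not settled. With the letter as a replicate block 0 of the 10 genes were called in 36 h against 24 h, 0 in 48 h against 36 h and 0 in 48 h against 24 h, and over all genes 82, 0 and 805 calls were made, against 2315, 452 and 5051 without the block.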
